A study of Mus musculus with 3072 samples.

Results

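The 37 genes described here encode ribosome biogenesis factors, the proteins that transcribe ribosomal RNA, modify and cleave it, and assemble it with ribosomal proteins in the nucleolus. They were taken by symbol from the deposited count matrix, where all 37 were found among 55291 gene symbols. RNA polymerase I makes a single long precursor RNA, small nucleolar ribonucleoproteins (snoRNPs) guide its chemical modification, the small subunit processome folds and cuts its front part, and a separate set of factors builds the large subunit. The output of this pathway sets how many ribosomes a cell can make. In blood formation it is known for being held low in quiescent stem cells, for rising as progenitors start to divide, and for its failure in inherited anaemias of red cell precursors.

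The study profiled bone marrow of C57BL/6 mice labelled WT that had been transplanted with barcoded stem cells, and asked how the blood system responds to acute platelet depletion. Single cells of populations that the labels call HSC, CFU and MkP were sorted by flow cytometry and sequenced by Smart-seq2 (full-length reads, no molecular identifiers). The control group held 4 mice sampled at week 32 after transplantation, and the platelet_depleted group held 4 mice sampled at week 28. All 8 mice carried transplanted cells, and the agent used for depletion is not given in the sources used here. Treatment, week and experiment code coincided in every mouse and cannot be told apart. Mice were told apart by the first part of the sample titles, an assumption that no label states, and served as the replicates. Each mouse contributed 3 sums of counts, 1 for each population, which makes 24 sums. Where nothing says that mice were housed or processed apart, p-values measure the spread between these mice only.

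The filter kept 2668 wells, with 79 to 94 HSC, 157 to 182 MkP and 72 to 93 CFU cells per mouse. The sums held 68.8 to 163.7 M counts in HSC, 215.7 to 327.9 M in MkP and 142.3 to 238.2 M in CFU. No pair of kept wells had the same total and the same number of genes (0 pairs). The sorted names fitted their defining markers: 9 HSC markers summed to 1188 to 2039 CPM (counts scaled to the sum's total, here without TMM) in HSC and to 64.5 to 94.4 in CFU, 9 megakaryocyte markers to 3823 to 6146 in MkP and to 25.5 to 42 in CFU, and 10 erythroid markers to 11299 to 15583 in CFU and to 1490 to 2101 in MkP. The CFU cells thus carried erythroid progenitor markers, and the name CFU is kept as the labels give it. Of the wells labelled CFU in control mouse 2, 93 are called MkP in the authors' deposited table, counted before the filter, which 72 of the CFU wells passed. In the sum of these 72, Klf1, an erythroid factor, stood at 647 CPM (627 or more in CFU and 102 or less in MkP), so the sample labels were followed. Myeloid markers (8 genes) ranged from 2.62 to 3168 CPM between CFU sums, and 10 of 647 CFU cells held over 1% of their counts in them, 6 of those in control mouse 3.

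Before the levels, the promoters of the members are shown, because a shared sequence is a property that the choice of members did not use. RefSeq promoter windows of build GRCm38.p6, which run from 250 bases before to 50 bases after a gene's start, were found for 31 of the 37 members. The E-box CACGTG, which reads the same on both strands and is bound by Myc and Max, occurred in the windows of 8 of these 31 members (25.8%). It occurred in 15 of 78 other genes of the pathway (19.2%), in 11.2% of the 12255 genes tested between populations that had a window, and in 8.09% of all 27025 genes with a window. The 30 bases around each of these 8 E-boxes are given 5′ to 3′ on the gene's strand, with the E-box in capitals:
Mybbp1a: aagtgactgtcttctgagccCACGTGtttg
Nop2: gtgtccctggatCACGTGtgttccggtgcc
Pes1: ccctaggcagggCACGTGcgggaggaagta
Pno1: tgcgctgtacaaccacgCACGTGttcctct
Tsr1: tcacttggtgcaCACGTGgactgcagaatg
Utp20: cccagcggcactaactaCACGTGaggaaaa
Utp4: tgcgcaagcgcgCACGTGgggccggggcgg
Wdr43: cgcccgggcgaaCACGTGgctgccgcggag

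The stretch of Nop2 lies upstream of the start site (chr6:125131811-125131840, plus strand), with the first base of the E-box 60 bases before the start. In the other members the E-box begins 3 to 41 bases after the start, in the transcribed part. These stretches are chr11:72441347-72441376 for Mybbp1a, chr11:3963965-3963994 for Pes1, chr11:74898092-74898121 for Tsr1, chr8:106893643-106893672 for Utp4 and chr17:71616220-71616249 for Wdr43, all on the plus strand, and chr11:17211540-17211569 for Pno1 and chr10:88826765-88826794 for Utp20 on the minus strand. The motif GCGCATGC, the core bound by NRF1, was present on either strand in the windows of 2 members, Nob1 and Pno1 (6.45%, against 5.38% of the tested genes). The motif TCGCGAGA was present in 2 members, Nop58 and Tsr1 (6.45%, against 2.21%). None of these matches overlapped an E-box, and a match describes letters in a window, not binding.

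In CFU cells the whole set stood above its level in HSC. All 37 members were called higher in CFU than in HSC (edgeR, Benjamini-Hochberg adjusted p under 0.05 over 20852 genes), where 27.7% of all genes tested were called higher. The median log2 change over the members was 1.30, with a range from 0.57 for Nob1 to 2.42 for Pno1, while the median over all genes was -0.27. In 36 of 37 members every CFU sum lay above every HSC sum, which 16.6% of all genes did, and only the small subunit factor Utp20 overlapped. MkP stood between the other populations. In MkP, 30 of 37 members were called higher than in HSC (background 16.8%), all 37 estimates were above 0, and the median log2 change was 0.51 against 0.01 over all genes. Without overlap between the 8 MkP and the 8 HSC sums stood 11 of 37 members (background 5.77%). CFU exceeded MkP in 36 of 37 members (background 22.3%), with a median log2 change of 0.83 against -0.25 over all genes, and 30 of 37 did not overlap (background 13.8%). No member (0 of 37) was called lower in any of these comparisons by edgeR or DESeq2, and every edgeR estimate was above 0, whereas edgeR called 13.1% of all genes lower in MkP and 35.8% in CFU against HSC, and 31.1% in CFU against MkP.

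The order was the same inside single animals. Within each mouse, 31 to 37 of the 37 members had their lowest level in HSC, an intermediate level in MkP and their highest level in CFU, an order seen in 22.9% to 25.05% of all genes. Summed over the members, the level was 4339 to 5904 CPM in HSC, here and for all single genes after TMM scaling, with a median of 5035, 6708 to 7735 in MkP with a median of 7262, and 12400 to 15392 in CFU with a median of 14312. The 3 ranges did not overlap. Npm1 and Ncl made up 37% of the summed level in HSC, 36.1% in MkP and 41.1% in CFU.

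**Figure D1:**
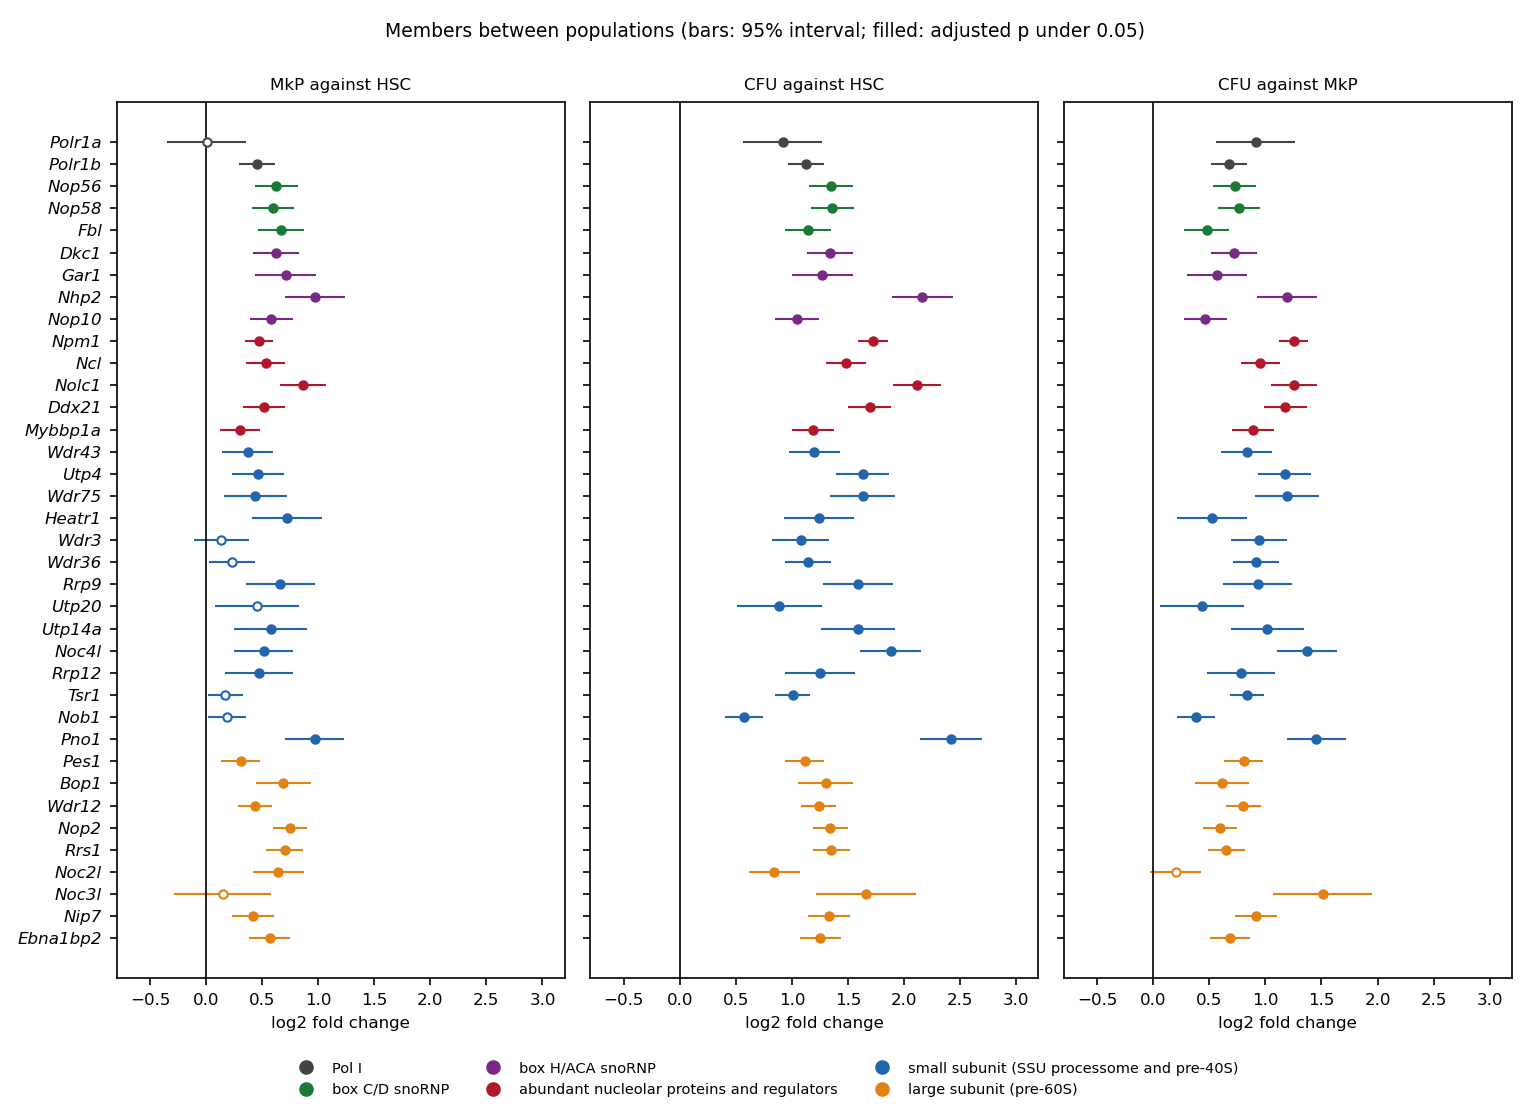
Log2 fold change of each of the 37 members (x axis) in the 3 population comparisons, over 8 mice, with 95% intervals as bars, colours for the members' roles and filled points for adjusted p under 0.05. All 37 points are filled for CFU against HSC, 30 for MkP and HSC, and 36 for CFU and MkP.

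These counts moved with other differences between the populations. The S phase list (16 genes) summed to 1524 to 4295 CPM without TMM scaling in HSC, 5238 to 6444 in MkP and 8102 to 9664 in CFU, and the G2/M list (20 genes) to 197 to 928, 1426 to 2552 and 2947 to 3962. All 16 S phase genes were called higher in both MkP and CFU than in HSC, as were 19 and 20 of the 20 G2/M genes. The median number of genes per cell ran from 5330 to 6808 in HSC, from 5509 to 7172 in MkP and from 7579 to 8508 in CFU. Their part in the result was not tested. When the sums were restricted to cells without a count of Mki67 and Top2a, which left 6 to 41 HSC and 1 to 52 MkP cells per mouse, the members' median log2 change in MkP against HSC was 0.56 and 35 of 37 estimates were above 0. In these sums 4 members, Nop56, Dkc1, Nhp2 and Nop10, were called higher by edgeR against 2.30% of all genes, and the MkP sum of control mouse 2 rested on 1 cell. CFU held 1 such cell in all, so the comparison could not be made there.

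The choice of scaling moved the size of the CFU difference, though not its direction. With library sizes alone instead of TMM, the median of all genes in CFU against HSC moved by 0.41 to -0.68 on the log2 scale. The members' median was then 0.89, with 36 members called, and the share of all genes called is not given for this setting. After GC and length trends were taken out, the median of all genes was 0.39 and that of the members 2.25. Relative to all genes, the members' median was 1.57 with TMM, 1.57 with library sizes alone and 1.87 after the removal of trends. It was smaller in other settings: 1.41 in control mice alone, 1.36 in thinned cells and 1.14 among genes with a mean of at least 8 CPM. In CFU against MkP this gap was 1.08 with TMM and 0.74 among genes with a mean of at least 8 CPM.

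Of the RNA polymerase I subunits, Polr1b, a large subunit of the catalytic core, ran from 64.8 to 95.99 CPM in HSC (median 74.4), from 87.2 to 121.2 in MkP (median 108.5) and from 139.8 to 210.5 in CFU (median 165.2). The CFU mice lay above all others, while the MkP and HSC ranges overlapped. The log2 change was 1.13 (SE 0.08, edgeR adjusted p = 1.02e-11) in CFU and 0.45 (SE 0.08, adjusted p = 8.1e-05) in MkP against HSC. Polr1a, the largest catalytic subunit, did not follow in MkP: it ran from 29.7 to 53.3 CPM in HSC and from 29.996 to 65.5 in MkP, a log2 change of 0.00473 with a 95% interval from -0.35 to 0.36 (adjusted p = 0.988). The sign of this estimate changed with the processing. In CFU it ran from 56.9 to 113.3 CPM, all above HSC, with a log2 change of 0.92 (SE 0.17). Changes inside the interval were not detectable in MkP at this spread.

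All 3 box C/D snoRNP members, which carry the ribose methylation of ribosomal RNA, rose in both progenitor populations. The scaffold protein Nop56 was the highest of them per kilobase of the longest annotated transcript, at 93.04 CPM per kb in HSC, 143.8 in MkP and 237.7 in CFU. That transcript has 3627 bases for Nop56 and 9507 for Nop58, and ranks with other transcripts were not examined. Its level ran from 297.2 to 419.1 CPM in HSC, 420.3 to 632.9 in MkP and 710.2 to 1056 in CFU, so that the 3 populations did not overlap. Its partner Nop58 showed the largest CFU difference of the class, with a log2 change of 1.36 (SE 0.09, edgeR adjusted p = 8.99e-12). Nop58 ran from 140.2 to 281.2 CPM in HSC and from 404.9 to 548.7 in CFU. The methyltransferase Fbl showed the largest MkP difference, 0.67 (SE 0.10, adjusted p = 1.32e-05), from 96.4 to 183.5 CPM in HSC to 174.1 to 217.1 in MkP. Here the highest HSC mouse reached into the MkP range.

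The box H/ACA snoRNP members, which convert uridines of ribosomal RNA to pseudouridine and also hold telomerase RNA, likewise rose in all 4 cases in both MkP and CFU. Nhp2, an RNA-binding core protein, changed most in the class. Its level ran from 54.9 to 135.4 CPM in HSC (median 96.2), from 164.5 to 241.8 in MkP (median 193.6) and from 357.7 to 520.5 in CFU (median 431.6), without overlap between populations. The fold was 1.96 in MkP and 4.48 in CFU against HSC, with log2 changes of 0.97 (SE 0.13, edgeR adjusted p = 3.51e-06) and 2.16 (SE 0.13, adjusted p = 1.21e-12). The pseudouridine synthase Dkc1, the catalytic member, changed less, by 0.62 (SE 0.10) and 1.34 (SE 0.10). Gar1 and Nop10 changed by 1.27 and 1.04 in CFU, so members of 1 complex differed in size of change between 1.04 and 2.16 on the log2 scale.

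Among the abundant nucleolar proteins, Npm1, a histone and ribosome chaperone, was the highest of all 37 members per kilobase, at 720.6 CPM per kb in HSC, 997.1 in MkP and 2363 in CFU. Npm1 ran from 929 to 1391 CPM in HSC, from 1470 to 1824 in MkP and from 3445 to 4179 in CFU. These ranges did not touch, and the step from MkP to CFU (log2 change 1.25, SE 0.06) exceeded that from HSC to MkP (0.47, SE 0.06). Nolc1, a chaperone of snoRNPs, changed most in the class: it ran from 89.5 to 152.9 CPM in HSC, from 191.9 to 265.2 in MkP and from 434.7 to 616.8 in CFU. Its log2 change was 0.86 (SE 0.10, edgeR adjusted p = 6.09e-07) in MkP and 2.12 (SE 0.10, adjusted p = 2.58e-14) in CFU. The nucleolar helicase Ddx21 changed by 1.69 in CFU, nucleolin (Ncl) by 1.48 and the transcriptional regulator Mybbp1a by 1.19.

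**Figure D2:**
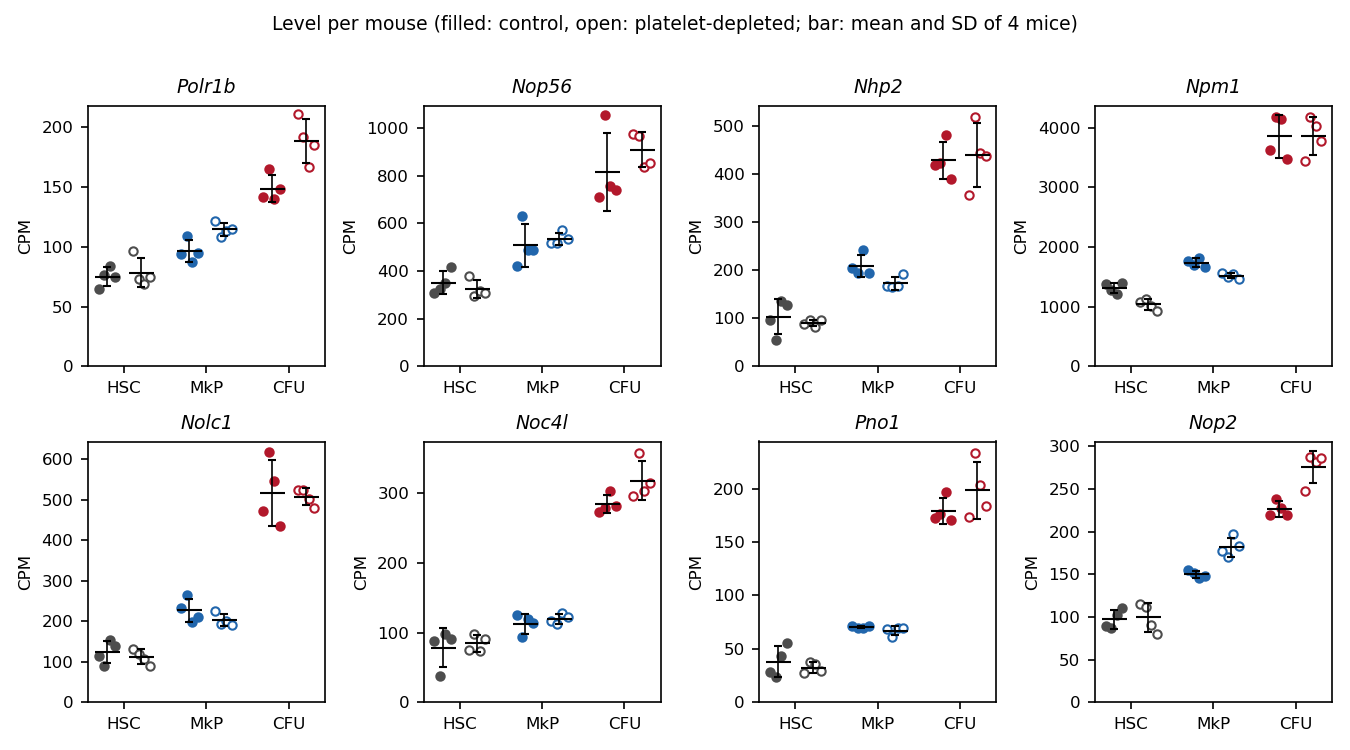
Level of 8 members in CPM (y axis, from 0) in every mouse of the 3 populations, with filled points for control and open points for platelet-depleted mice and bars for the mean and SD of 4 mice. In each panel the CFU points lie above all HSC and MkP points, as in Npm1 with 3445 CPM or more in CFU against 1824 or less in MkP.

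The small subunit class held both extremes of the CFU change. Pno1, which binds the small subunit precursor and guides its last cleavage, ran from 24.2 to 55.8 CPM in HSC, from 60.9 to 71.6 in MkP and from 170.1 to 233.4 in CFU. The 3 populations did not overlap, and the folds against HSC were 1.95 in MkP and 5.36 in CFU (edgeR adjusted p = 3.45e-06 and 2.07e-13). Nob1, the endonuclease that acts beside Pno1 in the same cleavage, had the smallest change of all members in CFU: it ran from 80.8 to 118.0 CPM in HSC, from 96.7 to 135.2 in MkP and from 118.2 to 200.4 in CFU. Its fold in CFU was 1.48 (adjusted p = 1.91e-06), and in MkP its log2 change of 0.18 (SE 0.08) was not called (adjusted p = 0.0939). The 95% intervals of the CFU change, 2.15 to 2.70 for Pno1 and 0.40 to 0.74 for Nob1, were far apart.

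Noc4l, a nucleolar factor of the processome, was the highest of the class per kilobase, at 39.3 CPM per kb in HSC, 56.1 in MkP and 145.1 in CFU. It ran from 37.9 to 98.7 CPM in HSC, from 93.1 to 127.6 in MkP and from 272.6 to 358.0 in CFU, with the lowest value in HSC of control mouse 2. Noc4l rose by 0.51 (SE 0.13) in MkP and by 1.88 (SE 0.13, edgeR adjusted p = 1.19e-11) in CFU. All 14 small subunit members were called higher in CFU and 9 of 14 in MkP. The 5 that were not called in MkP had log2 changes of 0.13 (Wdr3), 0.17 (Tsr1), 0.18 (Nob1), 0.23 (Wdr36) and 0.45 (Utp20). With the mouse as a block, Utp20 was called (0.47, edgeR adjusted p = 0.0101). Of these 5, all but Wdr3 had an unadjusted p under 0.05. Heatr1, Utp4, Wdr43 and Wdr75, of the subcomplex that binds the nascent transcript, were called with log2 changes of 0.72, 0.46, 0.37 and 0.44. Utp20 was the lowest of all 37 members per kilobase, at 2.25 CPM per kb in HSC and 4.14 in CFU.

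In the large subunit class all 9 members were called higher in CFU, and 8 of 9 in MkP. Nop2, a cytosine methyltransferase of large subunit RNA, was the highest per kilobase and the member with the largest MkP change. It ran from 79.98 to 115.2 CPM in HSC, from 145.8 to 196.9 in MkP and from 219.6 to 287.9 in CFU, without overlap. Its log2 change was 0.75 (SE 0.07, edgeR adjusted p = 8.65e-08) in MkP and 1.34 (SE 0.07, adjusted p = 2.69e-13) in CFU. The 3 proteins of the PeBoW complex, Pes1, Bop1 and Wdr12, rose by 1.11, 1.30 and 1.24 in CFU and by 0.31, 0.69 and 0.44 in MkP. Noc3l and Noc2l, partners in early large subunit assembly, had different patterns, which were not tested against each other. Noc3l ran from 4.43 to 12.01 CPM in HSC, from 4.38 to 13.8 in MkP and from 16.7 to 32.6 in CFU, so it rose in CFU (log2 change 1.66, SE 0.22) and was not called in MkP (0.15, SE 0.21, adjusted p = 0.663). Noc2l rose in MkP by 0.64 (SE 0.11) and in CFU by 0.84 (SE 0.11), and it was the only member without a call between CFU and MkP (0.20, SE 0.11, adjusted p = 0.133). With library sizes alone that estimate was -0.13.

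Of 101 symbols listed for other genes of the pathway, some of them older and newer names of the same gene, 96 were in the matrix. All 96 were tested. Of 13 further polymerase I genes, 10 were called higher in CFU than in HSC, as were 33 of 36 small subunit factors and 44 of 47 large subunit factors. That makes 87 of 96, beside 27.7% of all genes. In MkP against HSC the counts were 5, 20 and 26, or 51 of 96 beside 16.8% of all genes, and 11 of the 96 estimates were below 0. In neither comparison was a gene called lower by edgeR (0 of 96). In CFU against MkP, 10, 32 and 43 were called higher, or 85 of 96 beside 22.3% of all genes, and Znrd1, a small polymerase I subunit, was called lower (log2 change -0.41, SE 0.12, adjusted p = 0.00589). The median log2 change over the 96 genes was 1.05 in CFU and 0.27 in MkP against HSC, beside 1.30 and 0.51 for the members. The largest changes in CFU against HSC were those of Bysl (2.45, SE 0.13), which acts late on the small subunit, and of the large subunit factors Mrto4 (2.32, SE 0.09) and Ftsj3 (1.90, SE 0.12). In MkP against HSC they were those of the small subunit factors Ltv1 (0.86), Bysl (0.80) and Bud23 (0.67). In CFU against MkP, Mrto4 (1.702), Bysl (1.66) and the export adaptor Nmd3 (1.54) led.

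Myc, the transcription factor best known for driving these genes, had smaller changes than the members' medians. Its level was 242.9 ± 46.5 CPM in HSC, 333.2 ± 69.5 in MkP and 351.2 ± 94.5 in CFU (mean ± SD, n = 8 mice each). The log2 change against HSC was 0.43 (SE 0.14, edgeR adjusted p = 0.0238) in MkP and 0.49 (SE 0.14, adjusted p = 0.0043) in CFU, and 0.06 (SE 0.14, adjusted p = 0.741) between CFU and MkP, where 36 members differed. Its paralog Mycn went from 225.3 ± 67.3 CPM in HSC and 140.8 ± 15.7 in MkP to 0.653 ± 0.828 in CFU (n = 8), a fall with an adjusted p under the threshold in both CFU comparisons. In CFU the Myc antagonist Mxd4 fell by 1.57 (SE 0.18) and the cell cycle inhibitor Cdkn1a fell by 2.69 (SE 0.48) against HSC. The Max-like partner Mlx rose by 1.17 (SE 0.10), the Max partner Mxd3 by 1.23 (SE 0.51) and Trp53 by 0.96 (SE 0.07). In MkP against HSC, Trp53 rose by 0.42 (SE 0.07), Mxd1 fell by 0.35 (SE 0.11) and of the 12 genes listed these and Myc were the ones called.

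Depletion of platelets went with no call among the members by edgeR, which does not show that their levels were unchanged. In HSC, CFU and MkP, 0 of 37 members were called between depleted and control mice by edgeR, where 0%, 0% and 0.0108% of all genes tested were called. At an unadjusted p under 0.05 there were 6 members in HSC, 8 in CFU and 10 in MkP, where 8.56%, 11.9% and 13.7% of all genes stood. DESeq2 called 1, 2 and 6 members, beside 1.56%, 3.01% and 5.16% of all genes. The members' median log2 change was -0.08 in HSC (25 of 37 below 0), 0.09 in CFU (26 of 37 above 0) and 0.00488 in MkP (20 of 37 above 0). The medians over all genes were 0.00130, 0.00718 and 0.00792. These small medians depended on single mice and on the processing. In HSC the median was -0.14 without control mouse 1, -0.16 without control mouse 2, -0.05 without control mouse 4 and -0.04 without depleted mouse 2, and with library sizes alone it was 0.03 beside 0.11 for all genes. In CFU it was 0.06 without control mouse 4, 0.05 without depleted mouse 2 and 0.01 in thinned cells, and in MkP its sign varied, from -0.06 to 0.06.

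In HSC the members with the lowest p were Npm1, Dkc1 and Fbl. Here and in the next paragraphs members were picked by lowest p, so a lack of overlap follows in part from that choice. The share of all genes without such overlap was not counted. Npm1 stood at 1376, 1283, 1210 and 1391 CPM in the control mice and at 1078, 1126, 1020 and 929 in the depleted mice, without overlap, and its log2 change was -0.36 (SE 0.09, 95% interval -0.56 to -0.16, edgeR adjusted p = 0.364). Dkc1 stood at 218.5, 173.5, 225.3 and 250.5 CPM in control and at 183.9, 183.0, 134.8 and 148.3 in depleted mice. The groups overlapped through control mouse 2, and the log2 change was -0.43 (SE 0.14, adjusted p = 0.457). Fbl stood at 119.3, 109.5, 183.5 and 153.3 CPM in control and at 115.3, 96.4, 99.0 and 104.2 in depleted mice, which overlap as well, with a log2 change of -0.46 (SE 0.16, adjusted p = 0.472). In all 3 box C/D and all 4 box H/ACA members the HSC estimate was below 0, and none was called by edgeR. In the other roles this held for 4 of 5 abundant nucleolar proteins, 9 of 14 small subunit, 4 of 9 large subunit and 1 of 2 polymerase I members. The share of all genes below 0 is not given here. DESeq2 called Npm1 alone (adjusted p = 0.0266).

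In CFU the members with the lowest p were Wdr43, Nob1 and Nop2, all with higher values in depleted mice. Wdr43, a processome protein, stood at 257.5, 273.0, 271.4 and 265.4 CPM in control and at 345.5, 349.9, 357.6 and 366.5 in depleted mice. These groups did not overlap (SD 7.0 and 9.2, n = 4), with a log2 change of 0.35 (SE 0.06, edgeR adjusted p = 0.175, DESeq2 adjusted p = 2.38e-07). Nob1 stood at 118.2, 142.6, 134.9 and 129.1 CPM in control and at 161.0, 200.4, 165.9 and 160.9 in depleted mice. It did not overlap either, and changed by 0.33 (SE 0.09, edgeR adjusted p = 0.279, DESeq2 adjusted p = 0.0238). Nop2 stood at 219.6, 238.9, 228.2 and 220.0 CPM in control and at 247.4, 287.9, 281.1 and 286.6 in depleted mice, again without overlap, with a change of 0.22 (SE 0.06, edgeR adjusted p = 0.285).

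**Figure D3:**
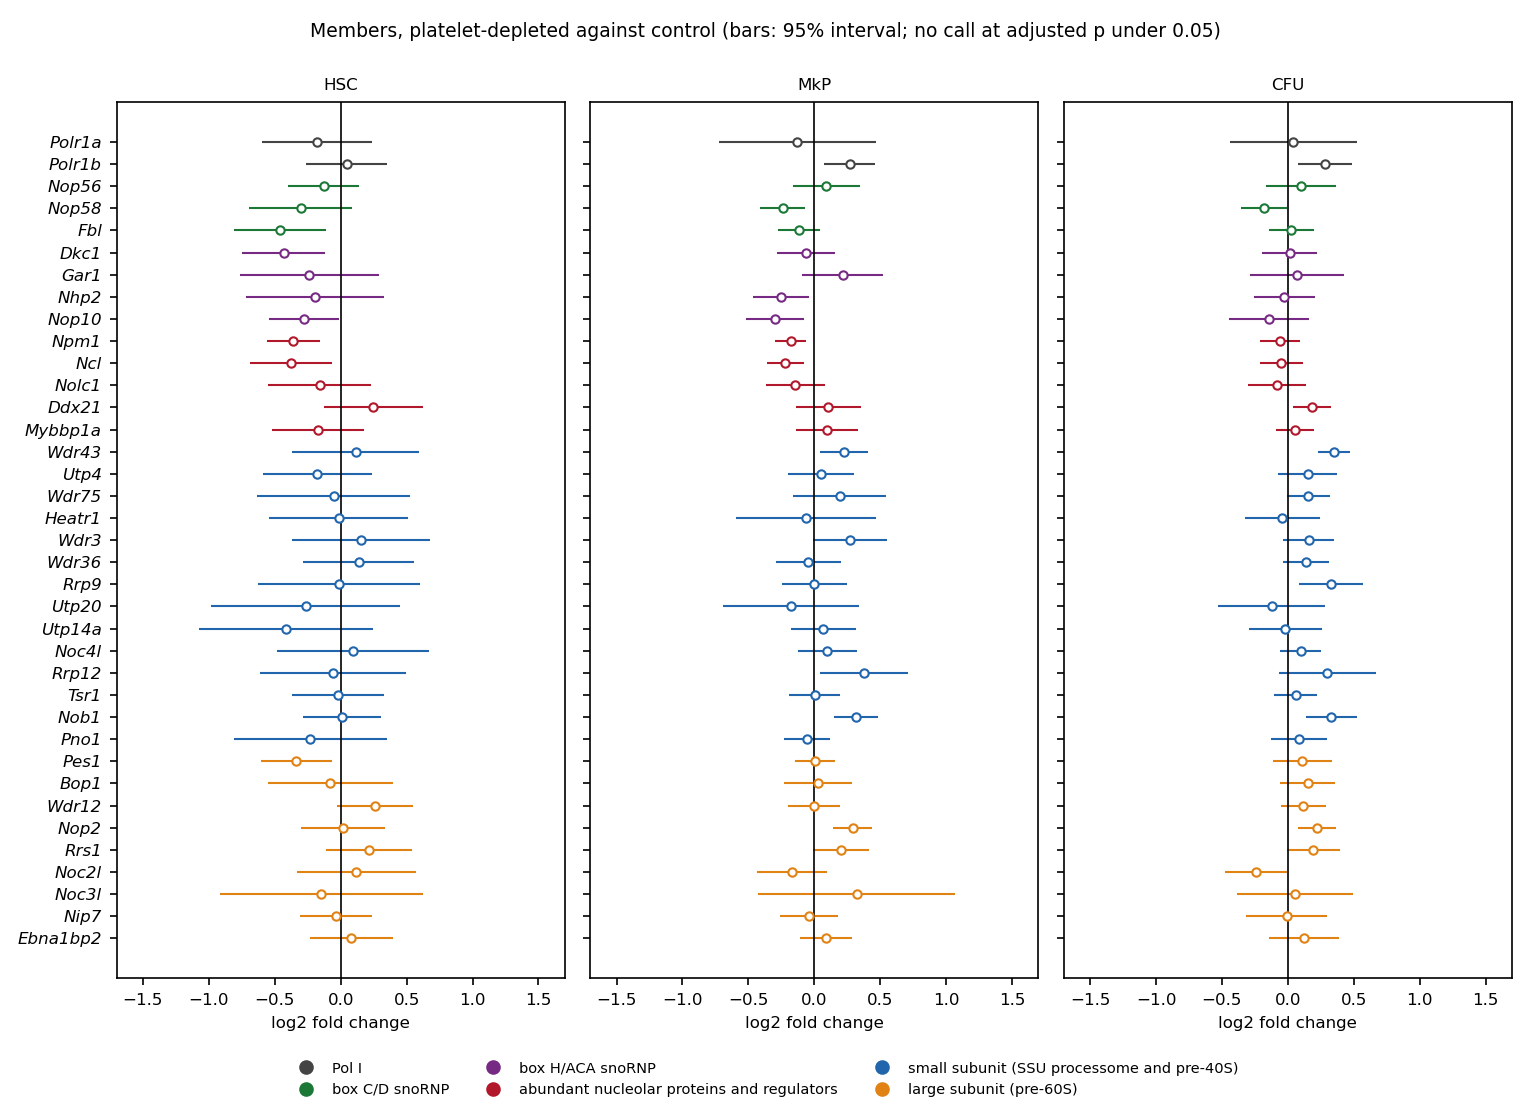
Log2 fold change of each of the 37 members between platelet-depleted and control mice (x axis, 4 mice against 4) in HSC, MkP and CFU, with 95% intervals as bars and colours for the members' roles; open points mark that no adjusted p was under 0.05. Most HSC points lie left of 0 and most CFU points right of it, with Wdr43 at 0.35 in CFU.

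In MkP, Nop2 and Nob1 had the lowest p again, followed by Ncl. Nop2 stood at 154.8, 151.9, 145.8 and 148.1 CPM in control and at 177.7, 170.1, 196.9 and 182.9 in depleted MkP, a change of 0.29 (SE 0.06, edgeR adjusted p = 0.157) without overlap. Nob1 stood at 106.6, 96.7, 110.7 and 101.2 CPM in control and at 121.3, 135.2, 124.1 and 131.5 in depleted MkP, also without overlap, a change of 0.32 (SE 0.07, adjusted p = 0.168). Ncl went the other way, from 1118, 1130, 1054 and 988.6 CPM to 950.0, 861.7, 937.5 and 898.7, again without overlap, a change of -0.22 (SE 0.06, adjusted p = 0.199). DESeq2 called Nop2 and Nob1 as higher and Ncl, Npm1, Nop10 and Nop58 as lower, with adjusted p from 0.00178 to 0.0472. The MkP and CFU sums come from the same 8 mice, so values of a gene in them are not independent.

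None of these treatment effects was shown to differ between populations. In the interaction terms 0 of 37 members were called by edgeR between MkP and HSC, CFU and HSC, and CFU and MkP, where 0.0144%, 0% and 0% of all genes were called. At an unadjusted p under 0.05 stood 2, 6 and 0 members, beside 6.05%, 9.05% and 5.89% of all genes. DESeq2 called 0 members in these terms, beside 1.5%, 2.76% and 2.33% of all genes. The lowest p was that of Pes1 in CFU against HSC, with a difference of 0.49 (SE 0.14, adjusted p = 0.279). In HSC, Pes1 stood at 115.9, 120.4, 109.7 and 106.8 CPM in control and at 104.6, 78.6, 86.7 and 93.7 in depleted mice, and in CFU at 195.2, 243.2, 200.6 and 189.8 against 201.8, 265.5, 244.4 and 221.9. Depleted mice were lower without overlap in HSC, whereas the groups overlapped in CFU. Pes1 also had the lowest p in MkP against HSC (0.31, SE 0.14, adjusted p = 0.759), and Npm1 in CFU against MkP (0.19, SE 0.10, adjusted p = 0.922).

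Other measures differed between the treatment groups beside these values. The median number of genes per cell was 5330 to 5758 in depleted and 5700 to 6808 in control HSC, 5509 to 6180 and 6557 to 7172 in MkP, and 7579 to 8242 and 8301 to 8508 in CFU. In HSC all 16 S phase genes had estimates below 0 in depleted mice (median -0.61), and in MkP all 20 G2/M genes did (median -0.42), with 0 called by edgeR in either list and 2 and 14 at an unadjusted p under 0.05. In MkP the control mice had 1955 to 2552 CPM in the G2/M list and the depleted mice 1426 to 1942, and 1166 to 1219 against 1288 to 1508 CPM in the 12 genes of the Myc network and p53. Some markers of other cell types separated the groups without overlap as well: for 5 mast cell and basophil genes in MkP, control mice had 451 to 616 CPM and depleted mice 699.9 to 1463, and for 8 myeloid genes in HSC, 721 to 789 and 847 to 1095 CPM. In CFU the summed erythroid markers, without TMM, were 11299 to 13920 CPM for control mice, below the 14671 to 15583 CPM of depleted mice. The part of these measures in the members' values was not tested.

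At the level of single cells, the members took a larger share of each cell's counts in the order seen in the sums. The median share per cell was 0.459% to 0.601% in HSC, 0.668% to 0.789% in MkP and 1.06% to 1.35% in CFU over the 8 mice, without overlap. Cells varied most in HSC, where the 95th percentile was 3.54 times the 5th, against 2.602 times in MkP and 2.33 times in CFU. Without Npm1 and Ncl the ratios were 4.42, 2.95 and 2.31. After each cell was thinned to 20000 counts, the typical member was detected in 42.4% of HSC, 60.97% of MkP and 88.8% of CFU (median over members of the mean over mice). The share rose from HSC to CFU in all members but Npm1, which had a count in every cell of both populations. How many of all genes rose in this way was not counted, and CFU cells had more genes detected per cell than HSC. Without thinning, the typical shares were 69.99%, 79.7% and 98.2%. Noc3l was the least detected, in 6.33% ± 1.82 of HSC, 10.1% ± 3.84 of MkP and 25.7% ± 6.01 of CFU (SD, n = 8 mice), and Pno1 went from 28.0% ± 6.63 to 48.4% ± 5.42 and 88.8% ± 2.6.

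**Figure D4:**
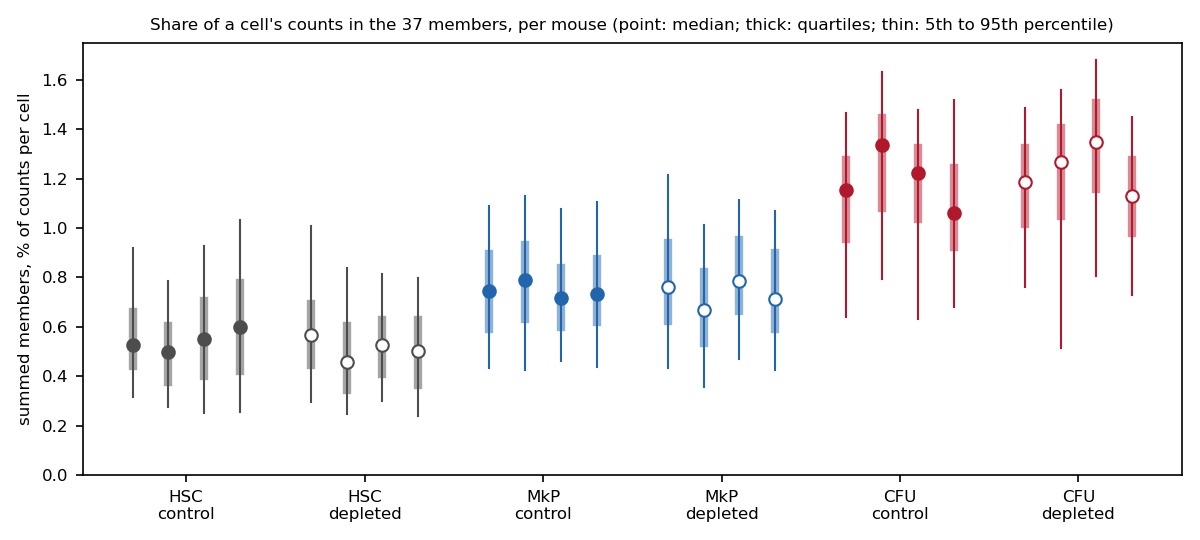
Share of a cell's counts that fell in the 37 members (y axis, percent) for each of the 8 mice in HSC, MkP and CFU, with points for the median cell, thick bars for the quartiles and thin bars for the 5th to 95th percentile. Medians step from at most 0.601% in HSC to at least 1.06% in CFU, while the cells of neighbouring populations overlap.

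The members' relation to the cell cycle lists took opposite signs in the populations. Across the cells of a mouse, thinned to 100000 counts, Spearman's rho between the summed members and the summed S phase list was 0.23 to 0.62 in HSC (median 0.35, 78 to 94 cells), 0.31 to 0.44 in MkP (median 0.39, 157 to 182 cells) and -0.63 to -0.17 in CFU (median -0.43, 72 to 93 cells). It was thus positive in all 16 sums of HSC and MkP and negative in all 8 of CFU. With the G2/M list the medians were 0.14, -0.13 and -0.25. These values describe the cells of 1 animal at a time, and cells are not replicates, so no p is given. In CFU the erythroid list also took counts, and its rho with the members was -0.46 to -0.01. That list held a median of 1.15% to 1.57% of a CFU cell's counts. With the erythroid counts left out, rho between the members and the S phase list in CFU was -0.63 to -0.16. Leaving out so small a share could move rho only little, and competition between the lists for counts was not tested.

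In HSC the members ran against the stem cell markers: rho was -0.61 to -0.34 in all 8 mice (median -0.45), against medians of -0.12 in MkP and -0.20 in CFU, where these markers are low. With Myc the medians were 0.19 in HSC, 0.14 in MkP and 0.27 in CFU, positive in all 24 sums. With the number of genes detected at equal depth they were 0.44, 0.23 and 0.34. Single members were only weakly related to each other across cells: the median rho over 666 pairs was 0.12. The most alike pair was Npm1 and Ncl, the most abundant members, with a mean rho of 0.39 over the 24 sums (0.04 to 0.75). Within roles the most alike pairs were Nhp2 with Nop10 (0.27), Nop56 with Nop58 (0.22), Wdr43 with Rrp9 (0.20), Wdr12 with Nop2 (0.18) and Polr1a with Polr1b (0.11).

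**Figure D5:**
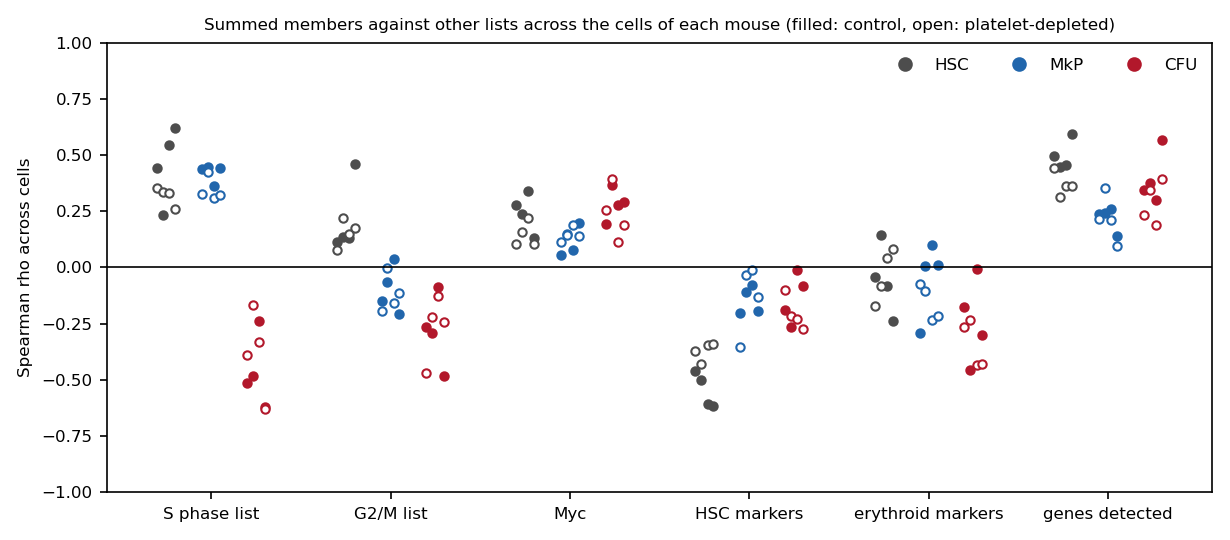
Spearman's rho across the cells of each mouse (y axis) between the summed members and 6 other measures, in HSC, MkP and CFU, with filled points for control and open points for depleted mice. For the S phase list the HSC and MkP points lie at 0.23 or higher and the CFU points at -0.17 or lower.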

How the data were processed

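The authors deposited a matrix of whole-number read counts per gene and well. Reads were processed with Trim Galore 0.5, STAR 2.6.0 and HTSeq 0.6.1, per the submitters' processing notes, while build and annotation were not given in the sources used here. The matrix held 3070 columns, and 1 of them was left out because it fits no sample's title. Symbols on several lines were added up. Wells with at least 20000 counts, at least 1000 genes and at most 20% mitochondrial counts were kept, 2668 of 3069, and no doublet caller was run. Without molecular identifiers, reads are not independent molecules.

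Counts were summed per mouse and population, and cells were never used as replicates. Populations were compared over all 24 sums, and treatments within each population, with edgeR 4.0.16 (quasi-likelihood test, TMM scaling, Benjamini-Hochberg adjustment over all genes tested, threshold 0.05) in R 4.3.3. DESeq2 1.42.0 was an alternative. The scripts were tested on simulated data with the same spread set for all genes, which was not that of the members. In those data the treatment fits called 31% of the genes changed by 1 on the log2 scale in HSC, 26% in CFU and 24% in MkP. The interaction of MkP and HSC called 5%. Transcript lengths and GC content were those of each symbol's longest transcript in GENCODE M21, which held 96.4% of the symbols. Levels per kilobase, and ranks by them, depend on this choice of transcript. Promoter windows and sequences came from RefSeq. The populations come from the same 8 mice, so the mouse number pairs them by animal, and the fit with the mouse as a block was an alternative. Other alternatives were scaling by library size, other filters on genes and wells, thinned cells, cells without Mki67 and Top2a counts, removal of GC and length trends, control mice alone, and leaving out each mouse. Members named with values per mouse were, in each role, the highest per kilobase and the largest changes in CFU and MkP against HSC, and by treatment the 3 lowest p per population. Polr1a, Noc2l, Noc3l and further members were named after their values were seen. The members and lists were chosen with earlier results of these data known. Reads of Fbl may be shared with 1 named pseudogene, and overlapping or antisense genes cannot be told apart because no strand setting is given.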

Additional observations from a re-analysis of the deposited data

Results flagged for a closer look

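In groups of 4 mice, 6 of the 102 groups examined (5.88%) held a mouse whose gap to the next one took up most of the group's range, where chance gives about 1 in 20. Nop56 in control CFU stood at 1056 CPM in mouse 2, against 710.2, 757.4 and 738.6 in the others. Nob1 in depleted CFU stood at 200.4 CPM in mouse 2, against 161.0, 165.9 and 160.9. Nhp2 in depleted MkP stood at 193.6 CPM in mouse 4, against 167.6, 164.5 and 167.8. A low mouse was seen for Pno1 in depleted MkP, at 60.9 CPM in mouse 2, with 68.5, 69.7 and 69.5 in the others. Nop2 in depleted CFU was low in mouse 1, at 247.4 CPM, with 287.9, 281.1 and 286.6 in the others. Noc3l in control CFU was low in mouse 4, at 16.7 CPM, with 30.6, 28.3 and 29.3 in the others.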

How the results depend on the processing

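Of the counts of members, those that moved by over 1.5 times were MkP against HSC, with 4 called in cells without Mki67 and Top2a counts and 19 in control mice only, and depleted against control with DESeq2, with 1 in HSC, 2 in CFU and 6 in MkP. Fewer cells and fewer mice enter the first of these, and the cause was otherwise not tested. Leaving out each mouse gave 28 to 31 members in MkP against HSC, 37 in CFU against HSC, 35 to 36 in CFU against MkP and 0 for every treatment comparison and interaction by edgeR. With the mouse as a replicate block the counts were 31, 37 and 36, the call gained was Utp20 (0.47 in MkP against HSC), and no other call of a named member changed. With library sizes without TMM they were 29, 36 and 30, and with GC and length trends removed 34, 37 and 37. For these settings, for each mouse left out and for control mice alone, the share of all genes called is not given here. Those counts of members therefore stand without a background. The log2 fold change of Polr1a, MkP against HSC, near 0, became -0.0712 with DESeq2, -0.157 in thinned cells, -0.0655 in cells without Mki67 and Top2a counts, -0.0219 in control mice only, -0.0713 without TMM, -0.0728 with a mean of at least 8 CPM, -0.0400 with the block and -0.0172 with the wells of the authors' table. Leaving out control mouse 2, depleted mouse 1 or depleted mouse 3 gave -0.122, -0.0564 and -0.0130, and over all mice left out in turn it ran from -0.122 to 0.0797. Noc2l in CFU against MkP was -0.13 without TMM. The log2 fold change of Noc3l, MkP against HSC, was -0.43 in cells without Mki67 and Top2a counts and -0.0846 in control mice only. The cause of these reversals was not tested. For 123 changes of single members, 2254 of 2350 alternatives kept direction and side of the threshold, 65 lost the call, 17 gained it and 14 reversed. CFU could not be run in cells without Mki67 and Top2a counts, of which it held 1.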
